A study of Rattus norvegicus with 4 samples.

Results

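Aquaporins are membrane channels that let water, and in some members glycerol or ions, cross the wall of kidney tubules, and the vasopressin V2 receptor sets how many of them a collecting duct cell uses. All probe sets whose platform gene symbol was Aqp1, Aqp2, Aqp3, Aqp4, Aqp6, Aqp7 or Avpr2 were taken, which gave 11 probe sets of 7 genes, out of 15866 probe sets of 10411 named genes. Kidney RNA came from male rats aged 9 weeks in 4 groups. The SHR nicotine group was the spontaneously hypertensive rat exposed to nicotine before birth, and the SHR saline group was the same strain exposed to saline. The BN nicotine and BN saline groups were Brown Norway rats exposed in the same 2 ways. SHR is an inbred model of inherited hypertension, and BN an inbred strain whose blood pressure is normal. RNA of 13 SHR nicotine animals, and of 12 animals in each other group, was pooled in equal amounts, and each pool was read on 1 Affymetrix RAE-230A array. The spread between animals is therefore not in these data, and the number of arrays limits all precision.

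When vasopressin binds the V2 receptor on principal cells of the collecting duct, the Gs protein raises cyclic AMP, protein kinase A phosphorylates aquaporin 2, and vesicles carrying it fuse with the apical membrane. Water then leaves the cell through aquaporins 3 and 4 in the basolateral membrane, and over longer times vasopressin also raises the transcript levels of Aqp2 and Aqp3. Aquaporin 1 carries the constitutive water flow of the proximal tubule and the thin descending limb, aquaporin 7 passes water and glycerol in the last segment of the proximal tubule, and aquaporin 6 sits in vesicles of intercalated cells.

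The sequences just upstream of Aqp2, Aqp3 and Aqp1 are shown. Of the family, Aqp2 and Aqp3 passed the strain test of the main fit, though not under all settings given below. No difference was detected for Aqp1. A link of any motif to the strain differences was not tested. Each is the 250 bases before the annotated start, in RefSeq's GRCr8 assembly, which is of a BN rat, so the SHR sequence was not used here. Capitals mark every match, on either strand, to 4 motifs: TATAA (TATA box), TGACG (core of the cyclic AMP response element), GATAA (GATA site) and GGGCGG (GC box). Aqp2 lies at chr7:132590036-132590285 on the plus strand, Aqp3 at chr5:61040684-61040933 on the minus strand and Aqp1 at chr4:85812534-85812783 on the plus strand.
Aqp2: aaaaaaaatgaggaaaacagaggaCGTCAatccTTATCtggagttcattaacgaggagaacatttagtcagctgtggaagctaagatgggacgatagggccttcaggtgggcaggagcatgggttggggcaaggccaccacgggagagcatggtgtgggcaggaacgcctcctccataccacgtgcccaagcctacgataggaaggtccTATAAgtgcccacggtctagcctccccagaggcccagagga
Aqp3: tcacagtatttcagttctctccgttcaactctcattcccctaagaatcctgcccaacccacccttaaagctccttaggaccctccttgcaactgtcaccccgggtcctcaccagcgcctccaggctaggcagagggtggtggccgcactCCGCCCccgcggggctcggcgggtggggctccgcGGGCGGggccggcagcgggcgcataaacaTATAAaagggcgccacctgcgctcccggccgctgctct
Aqp1: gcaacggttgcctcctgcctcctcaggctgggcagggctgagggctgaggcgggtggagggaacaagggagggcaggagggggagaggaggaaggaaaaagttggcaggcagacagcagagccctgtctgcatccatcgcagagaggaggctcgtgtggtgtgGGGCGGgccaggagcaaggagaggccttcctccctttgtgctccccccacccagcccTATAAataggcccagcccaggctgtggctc
The first base of the TATA match lay 41 bases upstream of the start in Aqp2, 38 in Aqp3 and 30 in Aqp1. Only the Aqp2 window held the cyclic AMP element core, 226 bases upstream on the minus strand, and a GATA match, 217 bases upstream on the minus strand. Aqp3 had GC boxes 67 and 101 bases upstream and Aqp1 had 1 at 87 bases, and no matches overlapped. Among 33469 RefSeq windows of the same length, 24.0% held TATAA, 18.2% TGACG, 23.5% GATAA and 30.5% GGGCGG, each counted on both strands. A promoter entry was found for 6 of the 7 genes, Aqp7 being the exception. In the RefSeq gene order of that assembly, Aqp2, Aqp5 and Aqp6 are direct protein-coding neighbours on chromosome 7, and Aqp3 and Aqp7 on chromosome 5.

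Values are MAS5 signal intensity on a linear scale. Before log2 ratios were taken, a floor was set at 44.5, the 40th percentile of the signals, and lower signals were set to it, and a gene counted as measured in a comparison if its higher value was at least 89.0. By this limit 6 of the 7 genes and 7 of the 11 probe sets were measured on some array, against 5697 of 10411 named genes. Defining transcripts of the kidney were bright on every array: Umod, of the thick ascending limb, read 5256 and 5260 in SHR against 4076 and 4044 in BN (nicotine, then saline), and Slc34a1, the phosphate carrier of the proximal tubule, read 3872 to 5024. No adrenal marker (0 of 4) and no adipocyte marker (0 of 3) was measured. The sum of 7 immune cell markers was 3951 and 3342 in the SHR nicotine and SHR saline pools, against 2791 and 2540 in the BN nicotine and BN saline pools. Its brightest members were Lyz2 (1742 and 1507 against 1044 and 869, in that order) and Cd74 (1706 and 1388 against 1365 and 1298). Only 4 of the 7 were measured, and of these Laptm5 went the other way (82.3 and 71.5 against 94.9 and 75.4). Beta-actin, whose 3' over 5' signal depends on RNA integrity, had such a ratio of 1.34 in SHR nicotine and 1.39 in SHR saline kidneys, against 1.49 in BN nicotine and 1.54 in BN saline kidneys. The 3' over 5' ratio of Gapdh overlapped between strains, at 1.107 in SHR nicotine and 1.002 in SHR saline kidneys. In BN nicotine and BN saline kidneys the Gapdh ratio was 1.094 and 1.075. The part of RNA integrity in the strain differences, and that of the immune cell signal, was not tested.

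**Figure D1:**
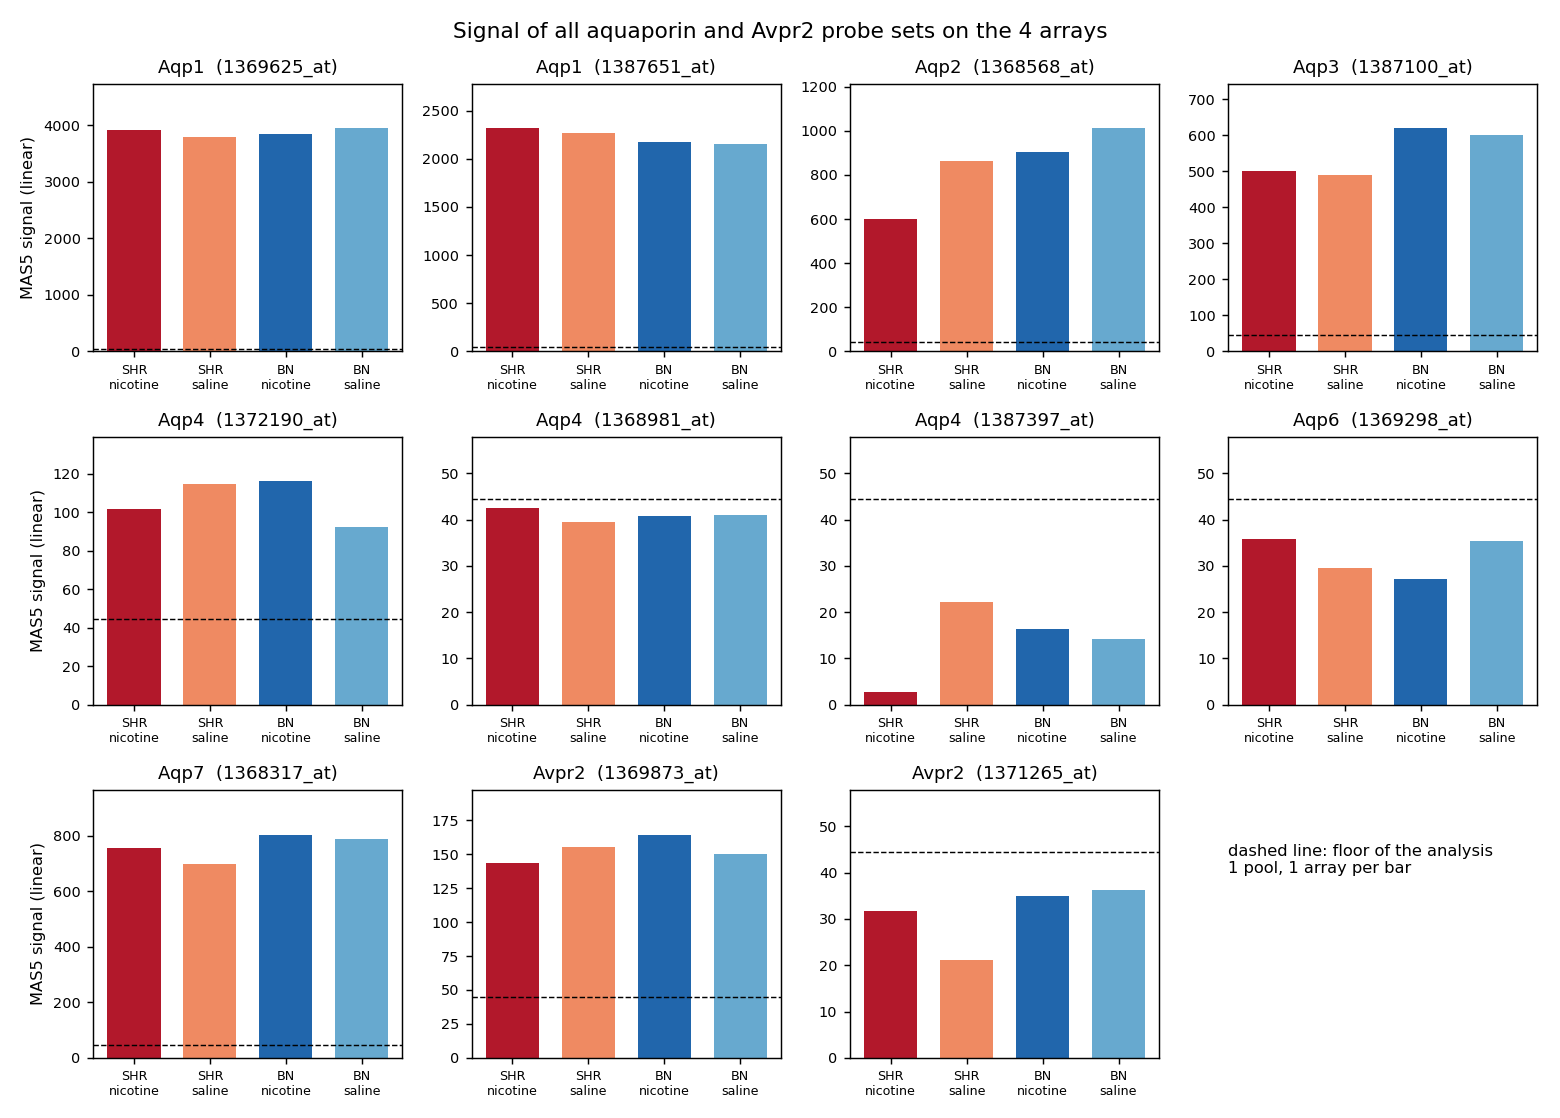
MAS5 signal (linear scale, bars from 0) of each of the 11 aquaporin and Avpr2 probe sets in the pools of SHR (nicotine, then saline) and of BN (in the same order), 1 array per bar, with the floor of 44.5 as a dashed line. Aqp2 was lowest in the SHR nicotine pool at 598, Aqp3 was lower in both SHR pools than in both BN pools, and 4 probe sets lay below the floor on all arrays.

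Aqp2, the vasopressin-regulated apical channel, read 598 in SHR nicotine and 864 in SHR saline kidneys, against 904 in BN nicotine and 1012 in BN saline kidneys. The SHR nicotine pool was the lowest, and both SHR values lay below both BN values. With 2 arrays per strain such an order, here and for the genes below, describes these pools only. Its share over all genes was not counted. Averaged over treatments, Aqp2 fell to 1.33-fold less in SHR than in BN, a log2 difference of -0.41 (SE 0.083, 95% interval -0.58 to -0.24, adjusted p = 0.00115 with limma over all genes). The size of that difference was uneven: it was 1.51-fold between the nicotine pools and 1.17-fold between the saline pools (log2 -0.60 and -0.23). Both values lie outside the 95% interval, whose width comes mostly from the variance of other genes. Leaving out a pool, with strain as the only factor since the additive fit has no spare degree of freedom on 3 arrays, gave -0.15 without SHR nicotine (adjusted p = 0.325 with limma), -0.68 without SHR saline (adjusted p = 0.00573), -0.49 without BN nicotine (adjusted p = 0.223) and -0.33 without BN saline (adjusted p = 0.379).

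Aqp3, the basolateral channel that also passes glycerol, read 500.3 in SHR nicotine and 489 in SHR saline kidneys, against 619 in BN nicotine and 600 in BN saline kidneys. The strains did not overlap in these pools, and nicotine and saline pools of a strain lay close together. Aqp3 fell by 0.30 on the log2 scale in SHR (1.23-fold less, SE 0.079, 95% interval -0.47 to -0.14, adjusted p = 0.0103 with limma), with 1.24-fold between the nicotine pools and 1.23-fold between the saline pools. Leaving out 1 pool in the same way left the difference between -0.33 and -0.28, and it passed without SHR nicotine (adjusted p = 0.0481 with limma) but not without SHR saline (0.0616), BN nicotine (0.158) or BN saline (0.103). In whole kidney, fewer principal cells and less of these transcripts per cell cannot be told apart.

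Both calls depended on the scaling and on the variance model. After quantile normalization the adjusted p with limma was 0.064 for Aqp2 and 0.063 for Aqp3, with log2 differences of -0.38 and -0.28, and without an intensity trend in the variance it was 0.098 and 0.114. After cyclic loess normalization the adjusted p with limma was 0.039 for Aqp2 and 0.044 for Aqp3. Both genes also passed with a floor at the 20th or 60th percentile, with log2(signal + 20) and with means over probe sets. Each has 1 probe set with bright signals, so those floors and means left the differences at -0.41 and -0.30. Only the variance estimates and the set of genes tested changed there. Without the filter on low genes neither passed (adjusted p 0.504 for Aqp2 and 0.283 for Aqp3 with limma).

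Of 6 genes of the family tested for strain, these 2 passed as lower in SHR and 0 as higher, and the median log2 difference was -0.10. Among all 5444 genes tested, 9.33% passed as lower and 8.28% as higher in SHR, 17.6% in either direction, with a median of 0.0011. By fold between single pools, 1 of the 6 was at least 20% lower in SHR under nicotine, where 12.6% of all genes were, and 0 were at least 25% higher, where 11.9% were (the same ratio turned round). That gene was Aqp2, which was also the 1 gene of the family past 1.5-fold there, as were 7.6% of all genes. Under saline 0 of 6 were 20% lower or 25% higher in SHR, where 11.7% and 12.5% of all genes were, and 0 of 6 were past 1.5-fold, where 7.39% were.

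Aqp4, the other basolateral channel of principal cells, read 101.8 in SHR nicotine and 115.0 in SHR saline kidneys, against 116.1 in BN nicotine and 92.3 in BN saline kidneys, on its 1 measured probe set. The strains overlapped. The log2 difference between strains was 0.064 (SE 0.17, 95% interval -0.29 to 0.41, adjusted p = 0.841 with limma), so a change of up to 1.33-fold upward was within the interval. The remaining 2 Aqp4 probe sets lay below the floor on all arrays, at 39.4 to 42.6 and at 2.65 to 22.2.

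Avpr2, the receptor itself, read 143.5 in SHR nicotine and 155.6 in SHR saline kidneys, against 164.5 in BN nicotine and 150.5 in BN saline kidneys. The strains overlapped here as well. Its log2 difference of -0.074 (SE 0.13, 95% interval -0.35 to 0.20) did not pass the test (adjusted p = 0.752 with limma), and its second probe set stayed below the floor at 21.1 to 36.3.

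Aqp1 varied least of the measured genes. Its brighter probe set read 3924 in SHR nicotine and 3798 in SHR saline kidneys, against 3852 in BN nicotine and 3949 in BN saline kidneys, a highest to lowest ratio of 1.04. The second Aqp1 probe set read 2316 in SHR nicotine and 2272 in SHR saline kidneys, against 2177 in BN nicotine and 2149 in BN saline kidneys. The 2 probe sets thus differed in direction between strains, at log2 -0.015 and 0.085, and neither passed (adjusted p = 0.901 and 0.396 with limma over all probe sets). On the brighter probe set the 95% interval of the strain ratio ran from 0.905 to 1.08.

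Aqp7, the glycerol and water channel of the proximal straight tubule, read 757 in SHR nicotine and 699 in SHR saline kidneys, against 804 in BN nicotine and 790 in BN saline kidneys. Both SHR values lay below both BN values, by 1.06-fold under nicotine and 1.13-fold under saline. The log2 difference of -0.13 (SE 0.074, 95% interval -0.29 to 0.022) did not pass (adjusted p = 0.244 with limma). Aqp7 is also known from adipocytes, whose markers Plin1 and Lep lay below the floor on all arrays, while Fabp4 read 53.2 and 79.4 in the SHR pools and 58.5 and 44.6 in the BN pools.

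Aqp6 read 35.7 in SHR nicotine and 29.6 in SHR saline kidneys, against 27.2 in BN nicotine and 35.3 in BN saline kidneys. All 4 values were below the floor, so no ratio is given and a difference was not detectable here. Of the other aquaporin genes with a probe set, Mip, Aqp5 and Aqp9 read at most 12.4 on any array and Aqp8 read 15.3 to 48.0. The transcripts of vasopressin (Avp), oxytocin (Oxt), the oxytocin receptor (Oxtr) and the vasopressin receptors Avpr1a and Avpr1b were not measured on any array either. In all, 0 of the 9 genes of this list with a probe set reached the limit.

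**Figure D2:**
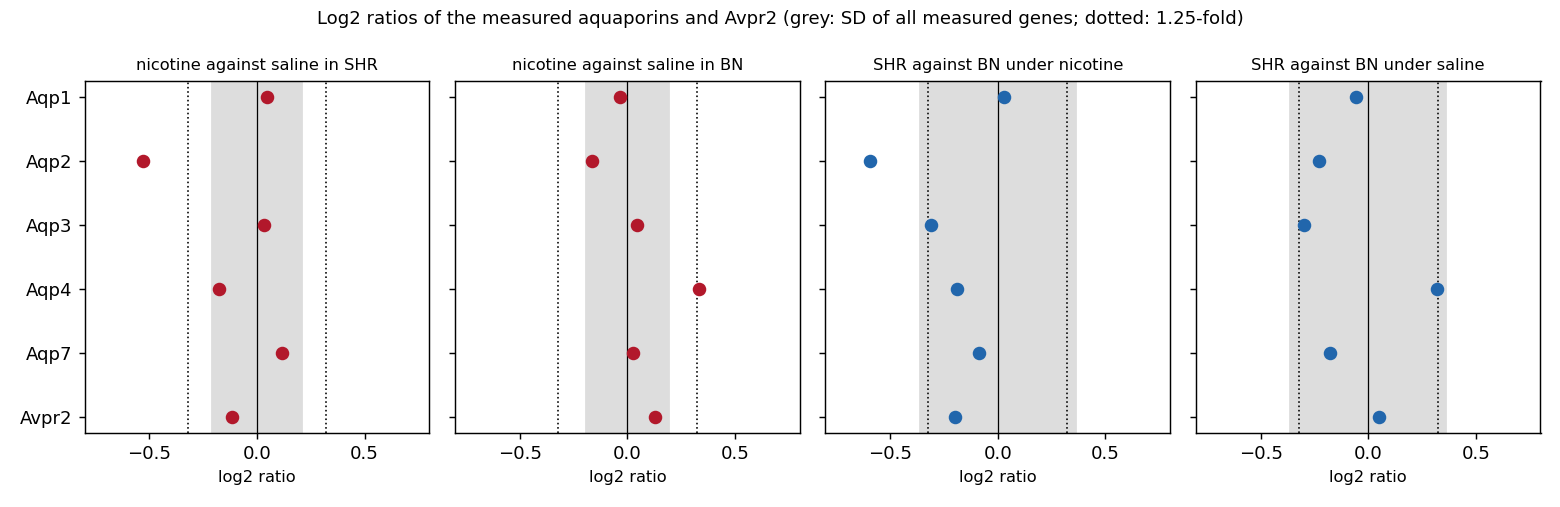
Log2 ratios of the 6 measured genes for nicotine against saline in SHR and in BN and for SHR against BN under nicotine and under saline, 1 point per gene from 1 pair of pools. The grey band is 1 SD of the ratio over all measured genes on each side of 0 and the dotted lines mark values 20% lower and 25% higher. Aqp2 lies beyond the dotted line in SHR and between the nicotine pools, and Aqp4 in BN.

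Nicotine was compared with saline within each strain to see how exposure before birth went with adult kidney transcripts. These comparisons have 1 pool per group and no replicate check. In SHR, Aqp2 was 1.44-fold lower in the nicotine pool (598 against 864, log2 -0.53), and in BN it was 1.12-fold lower (904 against 1012, log2 -0.16). The SD of the nicotine ratio over all measured genes was 0.21 in SHR and 0.19 in BN, and over genes with a mean signal of at least 300, where Aqp2 belongs, it was 0.14 and 0.12.

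In SHR, Aqp2 was the 1 gene of 6 at least 20% lower, as were 5.48% of all genes. Of genes with a mean signal of at least 300, a limit chosen after values were seen, 1.94% were. Aqp4 and Avpr2, with means of 106 and 154, are not among those. None of the 6 was 25% higher, where 5.19% of all genes were, and 0 were past 1.5-fold, where 1.86% were. In BN, Aqp4 was the 1 gene of 6 at least 25% higher (116.1 against 92.3, log2 0.33), as were 4.55% of all genes. That call was lost when log2(signal + 20) replaced the floor, where its log2 ratio was 0.28. In BN 0 of the 6 were 20% lower, where 3.89% of all genes were, and 0 were past 1.5-fold, where 1.43% were. The median nicotine ratio of the 6 genes was -0.041 in SHR and 0.036 in BN on the log2 scale, against -0.0063 and 0.0064 over all measured genes.

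Averaged over strains, the Aqp2 difference of nicotine against saline was -0.35 on the log2 scale (SE 0.085, 95% interval -0.529 to -0.164). Its unadjusted p was 0.00111 and its adjusted p 0.259 with limma. The ratios in SHR (-0.530) and BN (-0.163) lay just outside that interval, whose width comes mostly from the variance of other genes. Aqp2 was lower in nicotine in 2 of 2 strains. The difference did not pass over all genes, where 0 of 5363 genes (0%) passed and 285 had an unadjusted p under 0.05. A higher floor, set at the 60th percentile, gave an adjusted p of 0.0022 with limma, over a smaller set of genes, and with the other alternatives it did not pass. The ratio in SHR minus the ratio in BN was -0.37, and this difference between strains was not tested, since a model that holds it has no residual degree of freedom.

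For nicotine against saline, Aqp3 stood at log2 0.034 in SHR and 0.046 in BN, Aqp1 at 0.047 and -0.036, Aqp7 at 0.11 and 0.026, Avpr2 at -0.12 and 0.13, and Aqp4 at -0.18 and 0.33. Averages over strains lay between 0.0056 for Aqp1 and 0.078 for Aqp4, each with an adjusted p of 0.998 with limma. For Aqp3 the 95% interval of the nicotine to saline ratio was 0.917 to 1.15, for Aqp1 0.917 to 1.10, for Aqp7 0.943 to 1.17, for Avpr2 0.828 to 1.22 and for Aqp4 0.825 to 1.35.

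**Figure D3:**
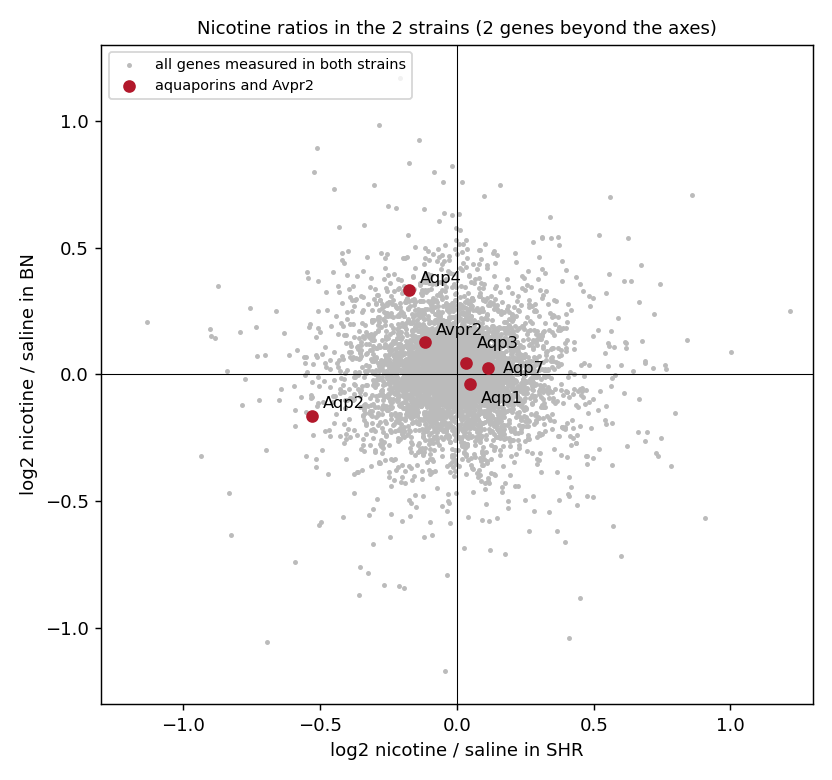
Log2 ratio of nicotine to saline in SHR (x axis) against the same ratio in BN (y axis) for all genes measured in both strains (grey) and for the 6 measured aquaporin and Avpr2 genes (red). Aqp2 lies left of and below 0, at -0.53 and -0.16, and Aqp4 and Avpr2 lie left of and above 0.

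By its 4 log2 values centred on their mean, the patterns most like that of Aqp2 among the other 5696 measured genes were those of Fam216a, Hdgf and Acaca. Their root mean square differences from Aqp2 were 0.041, 0.048 and 0.049. Hdgf, a heparin-binding growth factor, read 178 in SHR nicotine and 236 in SHR saline kidneys, against 264 in BN nicotine and 283 in BN saline kidneys. With 4 arrays such likeness is a description of these pools only. No other gene of the family spanned the 0.5 log2 units required for this comparison.

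Genes of V2 receptor signalling and Aqp2 vesicle traffic were taken as a list. In whole kidney RNA their signals cannot be assigned to the collecting duct. Of 21 genes tested for strain, 1 fell in SHR and 0 rose, with a median log2 difference of -0.0080, against 17.6% called and a median of 0.0011 over all genes. The gene that fell was Prkar2a, a regulatory subunit of protein kinase A, at 674 in SHR nicotine and 727 in SHR saline kidneys against 948 in BN nicotine and 899 in BN saline kidneys (log2 -0.40, adjusted p = 0.00062 with limma). Akap7, which anchors that kinase at vesicles, and the early endosome protein Rab5a stood at -0.27 and -0.25 without passing. Of the 21 differences 12 were negative and 9 positive, the largest positive ones being Vamp2 at 0.20 and Snap23 at 0.16, also without passing. For nicotine 0 of 21 passed, and the median was 0.010. Largest in size was Prkacb, a catalytic subunit of protein kinase A, with an average of -0.24 (adjusted p = 0.760 with limma). It read 315 in SHR nicotine and 408 in SHR saline kidneys, and 405 in BN nicotine and 433 in BN saline kidneys. Next were the membrane fusion protein Stx3, at 0.21, and Akap7, at 0.16. Gnas, which encodes the Gs alpha subunit, read 1968 and 2020 in SHR and 1965 and 2007 in BN, nicotine before saline, and Adcy6, an adenylyl cyclase of the collecting duct, read 257 and 252 in SHR against 244 and 249 in BN.

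The counts of the lists that follow stand against 9.33% of all genes that fell and 8.28% that rose in SHR. Of 7 other markers of principal cells, the cells of Aqp2 and Aqp3, 1 fell in SHR and 0 rose, near the share over all genes, and the median log2 difference was 0.13. Fxyd4, a regulator of the sodium pump in the collecting duct, read 146 in SHR nicotine and 174 in SHR saline kidneys against 268 in BN nicotine and 270.0 in BN saline kidneys, and fell by 0.76 (adjusted p = 5.27e-05 with limma). The sodium channel subunits Scnn1g and Scnn1b stood at 0.42 and 0.27 without passing. The summed signal of the 8 principal cell markers with a probe set was 1910 and 1884 in the SHR nicotine and SHR saline pools. In the BN nicotine and BN saline pools it was 1892 and 1874, and 0 of the 8 lay below the floor on all arrays. Its brightest members were Hsd11b2 (541 and 523 against 463 and 455, in that order) and Kcnj1 (433 and 419 against 472 and 453). Whether the sum follows principal cell number was not tested. For nicotine 0 of 7 passed, with a median of 0.034, Scnn1a at 0.25 and Fxyd4 at -0.13.

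Intercalated cell markers, the cells of Aqp6, gave 2 of 5 that rose in SHR and 0 that fell, against 8.28% and 9.33% of all genes, with a median of 0.28. The anion exchanger Slc4a1, which red cells share, stood at 0.42 and the ammonia channel Rhcg at 0.36, while the anion exchanger Slc26a4 at -0.33 (adjusted p = 0.0813 with limma) and the carbonic anhydrase Car2 at -0.18 had the opposite sign without passing. Of 5 tested for nicotine 0 passed. Markers of the thin limbs and inner medulla gave 1 of 4 that fell in SHR, the calcium-binding S100a6, at -0.99, and 0 of 4 for nicotine, where S100a6 stood at 0.37. Proximal tubule markers, the cells of Aqp1 and Aqp7, gave 5 of 10 that rose and 1 that fell in SHR, where 8.28% and 9.33% of all genes did, with a median of 0.22 and with Cubn, an endocytic receptor, lowest at -0.57. In the thick ascending limb list 1 of 4 rose, Umod at 0.37, and 1 fell, the sodium, potassium and chloride carrier Slc12a1 at -0.76, and among podocyte markers 1 of 2 fell, Podxl at -0.55. Of the markers of endothelium, where Aqp1 also occurs, 1 of 5 rose, Kdr by 0.32, and 1 fell, Vwf. Vwf read 42.7 and 40.8 in the SHR nicotine and SHR saline pools, both below the floor, against 144 and 124 in the BN nicotine and BN saline pools, so its log2 difference of -1.58 was measured to the floor and is a lower bound on the size. Red cells carry Aqp1 too, and the haemoglobin gene Hbb read 825 and 1112 in the SHR nicotine and SHR saline pools against 1311 and 877 in the BN nicotine and BN saline pools.

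Among genes of urea transport and osmotic response, 1 of 4 fell in SHR, the kinase Sgk1 at -0.26, and 0 rose, against 9.33% and 8.28% of all genes, and Nfat5 at 0.19 and Slc6a6 at 0.13 had the opposite sign without passing. For nicotine 0 of 4 passed while all 4 averages were negative, with a median of -0.14 against 0.0023 over all genes. The taurine carrier Slc6a6 stood at -0.21 and the osmotic regulator Nfat5 at -0.17. Akr1b1, of the same list, averaged -0.072 but was higher under nicotine in BN, at 0.12. The share of all genes with a negative average was not counted. Genes of glycerol use, the second substrate of aquaporins 3 and 7, gave 3 of 5 that fell in SHR and 0 that rose, against 9.33% and 8.28% of all genes, with a median of -0.34. Lpl, which releases fatty acids from circulating triglyceride, fell by 0.63, the glycerol kinase Gk by 0.47 and the glycerol phosphate dehydrogenase Gpd1 by 0.34. Gk read 230.4 in SHR nicotine and 430 in SHR saline kidneys against 458 in BN nicotine and 412 in BN saline kidneys, so it was 1.99-fold lower in SHR between the nicotine pools and 1.04-fold higher in SHR between the saline pools. The SHR nicotine pool was also the lowest for Aqp2. For nicotine 0 of 5 passed and Gk stood at -0.37. In the list of prostaglandin and endothelin control, 2 genes were tested and 0 passed for strain or nicotine, with Ptges, a prostaglandin E synthase, at 0.32 in SHR over BN.

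**Figure D4:**
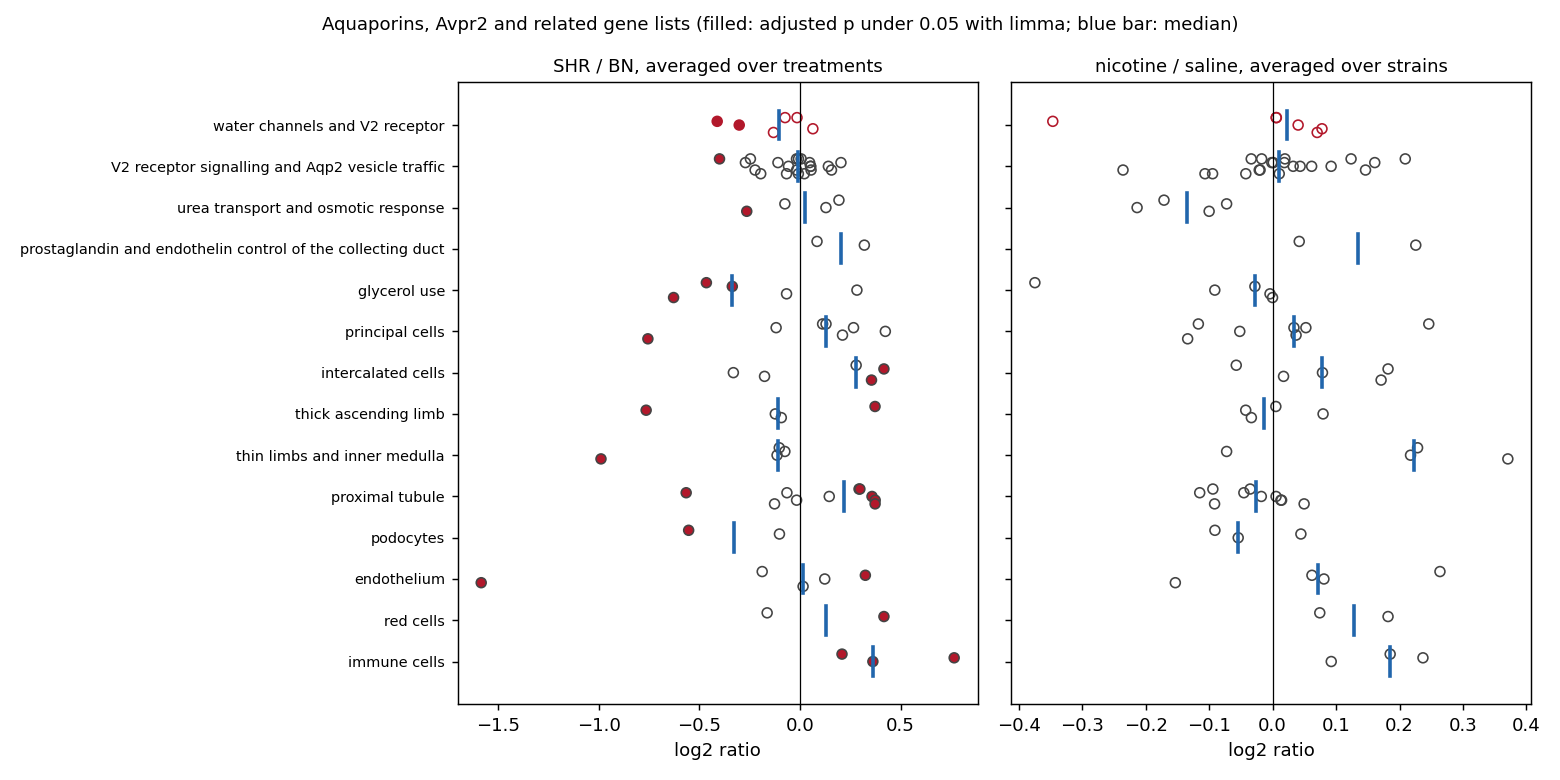
Log2 ratio of SHR to BN averaged over treatments (left) and of nicotine to saline averaged over strains (right) for the aquaporins and Avpr2 (top row) and for related gene lists, 1 point per tested gene. Filled points had an adjusted p under 0.05 with limma and blue bars are medians. Aqp2 and Aqp3 are the 2 filled points of the top row at left, and no point is filled at right.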

How the data were processed

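Kidney RNA of 49 rats in 4 pools was read on 4 arrays. The authors deposited signal intensity made with MAS5, per the submitters' processing notes, which give no version or settings here. All 4 arrays had a 2% trimmed mean of 150.0, and the values were used as deposited. The 57 control probe sets were left out. The remaining 15866 carried 1 gene symbol in 12783 cases, several in 312 and none in 2771, with symbols updated through the gene identifier to RefSeq (GRCr8). The brightest probe set by mean signal represented a gene. Limma 3.58.1 in R 4.3.3 fitted strain and treatment additively over the 4 arrays, with a variance trend on intensity and p-values adjusted by Benjamini-Hochberg, called at 0.05, for genes whose higher group mean reached 89.0. The fit leaves 1 residual degree of freedom, and eBayes adds prior ones (19.33 in the strain fit, 13.35 in the nicotine fit). That residual holds array noise together with any response to treatment that differs between strains. P-values therefore reflect this residual and the prior, and not the spread of animals. Intervals are 95% from the same fit. Genes were named by rule: all probe sets of the family, the largest ratios in each list, and the 3 patterns nearest to a gene of the family. The genes and lists were chosen with earlier results of these data known, and other genes, as well as the limit of 300 for bright genes, were chosen after their values were seen. List genes without a probe set of 1 symbol were not analysed here.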

Additional observations from a re-analysis of the deposited data

How the results depend on the processing

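Animals could not be paired because each group is 1 pool and the labels number no replicates. The additive fit does compare strains within treatment and treatments within strain. The count of genes differing between strains was 959, and it was 500 after quantile normalization, 619 after cyclic loess, 440 without the intensity trend, 0 without the filter on low genes and 300 to 534 without 1 pool, where strain or treatment was the only factor, so the remaining factor enters the difference. Of the 2 aquaporins lower in SHR, 0 passed after quantile normalization, without the trend or without the filter (adjusted p 0.504 for Aqp2 and 0.283 for Aqp3 with limma), 0 to 1 without 1 pool, and 1, Aqp3, with strain as the only factor (adjusted p 0.101 for Aqp2), an alternative added after seeing the data. Those log2 differences kept their sign throughout, and without 1 pool ran from -0.68 to -0.15 for Aqp2; its nicotine difference ran from -0.64 to -0.049, lowest in size without SHR nicotine. For nicotine, 6, 27 and 4 genes passed with the floor at the 20th or 60th percentile or with log2(signal + 20), against 0, and at the 60th percentile 1 of them was Aqp2. The 1 aquaporin at least 25% higher in BN under nicotine was Aqp4. With the floor at the 60th percentile or means over probe sets it was no longer measured, so no ratio was taken. With log2(signal + 20) or quantile normalization its log2 ratio was 0.278 or 0.316, just short of 25% higher. With the floor at the 20th percentile Aqp6 entered, giving 1 gene at least 20% lower in BN under nicotine and 1 at least 25% higher in SHR than in BN under nicotine. Small averages changed sign: for strain, Aqp1 was 0.035 with means over probe sets and -0.038 to 0.0088 without 1 pool, and Aqp4 -0.10 to 0.23 without 1 pool. For nicotine, quantile normalization gave -0.0042 for Aqp1 and -0.0018 for Avpr2, and leaving out 1 pool gave -0.023 to 0.034 for Aqp1, -0.11 to 0.19 for Aqp3, -0.081 to 0.24 for Aqp4, -0.018 to 0.16 for Aqp7 and -0.093 to 0.10 for Avpr2. The cause of these sign changes was not tested. Signals near the floor limit Aqp4, Aqp6 and the second Avpr2 probe set.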
